A study of Mus musculus with 86 samples.

Results

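The data described here are the 6 soma RNA-seq libraries of human motor neurons that were differentiated from induced pluripotent stem cells (iPSCs) and given either a scrambled short hairpin RNA (shRNA) or a hairpin that targets TDP-43. They were chosen by sample label, 3 libraries with the TDP-43 shRNA (shTDP43) and 3 with the scrambled shRNA (shCtrl), from 86 samples in the series. All 6 came from motor neurons that received a lentiviral vector and puromycin selection, so the controls share the vector and the drug and differ in the hairpin, and a single hairpin stands for the knockdown. The neurons grew on porous membranes, the soma fraction is what was scraped from the upper side, and several membranes were combined for each preparation. The neurites of the same 2 treatments, 3 libraries each, served for comparison, as did the soma of the mouse neuronal lines CAD and N2A with and without doxycycline, which removes TDP-43 in those lines, with 6 libraries per line. The labels name the cells as human but list the organism as mouse, and 203027 of 203028 rows in every human table carry human Ensembl transcript identifiers.

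TDP-43, encoded by TARDBP, is an RNA-binding protein that sits mostly in the nucleus and prefers UG-rich sequence. It represses the inclusion of unannotated exons, controls poly(A) site choice and RNA stability, and takes part in the transport of RNAs into neurites. It leaves the nucleus and aggregates in the motor neurons of most people with amyotrophic lateral sclerosis, which is why its loss is studied in motor neuron cultures. The comparison of soma with and without the hairpin asks which RNAs of the cell body differ in amount when TDP-43 is reduced.

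The hairpins are shown because they define the groups. Capitals mark the positions at which the TDP-43 hairpin differs from the mouse Tardbp sequence.
scramble shRNA: cctaaggttaagtcgccctcg
TDP-43 shRNA: agatcttaaGactggtcaTtc
mouse Tardbp site: agatcttaaAactggtcaCtc

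Each hairpin target is 21 nt long. Among 141767 mouse transcripts of GENCODE vM21, the TDP-43 sequence had its best match in Tardbp, in 16 of its transcripts, on the sense strand and with 2 mismatches. Counted from the 5′ end of the hairpin sequence, these were G10A and T19C. The site lies at chr4:148620704-148620724 (GRCm38, minus strand), in exon 4 of 8 of the Tardbp transcript ENSMUST00000045180.13, and all 21 bases are coding. Every other mouse gene had at least 3 mismatches. The scrambled sequence had at least 4 mismatches to every mouse transcript. The human transcripts were not searched, because no human sequence or annotation was used here.

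The human tables list transcripts without gene names, and 0 of their identifiers occur in the name table used here. The TARDBP transcripts, the motor neuron and glial marker genes and the known targets of TDP-43 could therefore not be looked up. The extent of the knockdown and the cell type were therefore not checked here. The study itself reported lower TDP-43 by immunoblot in human motor neurons given its TDP-43 shRNA. It also reported that pluripotency and neuronal markers did not differ between the hairpins. Transcripts are named below by identifier only.

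The 6 soma libraries were unequal in size and content. They held 10117294, 28567187 and 38848691 estimated counts in shCtrl 1, 2 and 3, and 28729970, 34604844 and 27692665 in shTDP43 1, 2 and 3. The number of transcripts with a count was 27133, 74043 and 102486 in the shCtrl libraries and 58366, 89512 and 91685 in the shTDP43 libraries. When the other 5 libraries were thinned to the total of the shallowest, they still held 55777 to 88882 transcripts against its 27133. Of 21072 transcripts with at least 50 counts in each of the other 5 soma libraries, 8578 (40.7%) were listed at 0 in shCtrl 1. The like share was 4.17% in shTDP43 1 and between 0.161% and 1.32% in the other 4. The effective length that salmon assigned to transcripts from 1000 to under 2000 nt long, a quantity that enters each TPM, had a median of 218 nt in shCtrl 1 and 553 nt in shTDP43 1, against 926 to 1044 nt in the other 4. The libraries shCtrl 1 and shTDP43 1 thus stood apart from the rest, and results are given below with and without them. The neurite libraries were uneven too. Among them the like share was 13.2% in shTDP43 neurite 1, 5.9% in shCtrl neurite 2 and 2.65% in shTDP43 neurite 2. It was 0.582% to 1.59% in the remaining neurite libraries. The median effective length was 217, 215 and 167 nt in the neurite libraries named, against 700 to 849 nt in the remaining ones.

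**Figure D1:**
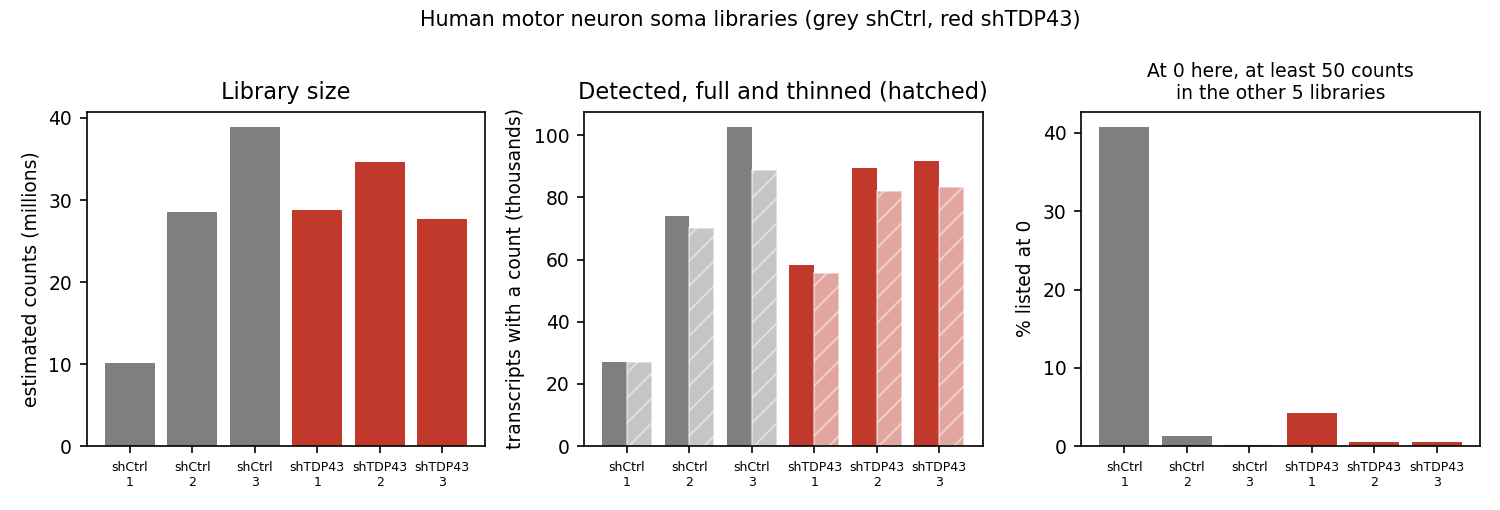
Library size in estimated counts, transcripts with at least 1 count (solid, full depth; hatched, thinned to the shallowest library) and the percentage of transcripts listed at 0 among those with at least 50 counts in each of the other 5 libraries, for the 3 shCtrl (grey) and 3 shTDP43 (red) soma libraries, 1 bar per library without replicate error. The shCtrl 1 library has the fewest transcripts, 27133, and the highest share at 0, 40.7%.

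Over all 6 libraries, replicates did not resemble each other more than they resembled the other group. Over the 56717 transcripts that passed the expression filter, Pearson's r of log2 CPM (counts scaled to library size) had a median of 0.66 over the 6 pairs of libraries within a group and 0.68 over the 9 pairs between groups. The shCtrl 1 library reached 0.45 to 0.49 with the other 5, shTDP43 1 reached 0.63 to 0.68 with the remaining 4, and those 4 reached 0.73 to 0.85 with each other. Among those 4 the within-group median, 0.803, was slightly above the between-group median, 0.791. These values are across transcripts, which share a library and are not independent. The first principal component held 60.9% of the variance and set shCtrl 1 against the rest, and the second held 19.8% and set shTDP43 1 against the rest.

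Transcripts with at least 10 counts in every soma library, 14035 in all, agreed better. The within-group median of r was 0.92, and shCtrl 1 again had the lowest values, 0.76 to 0.78. The 4 libraries left after shCtrl 1 and shTDP43 1 were set aside gave a median of 0.971 within groups and 0.961 between groups, with between-group values of 0.952 to 0.970.

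**Figure D2:**
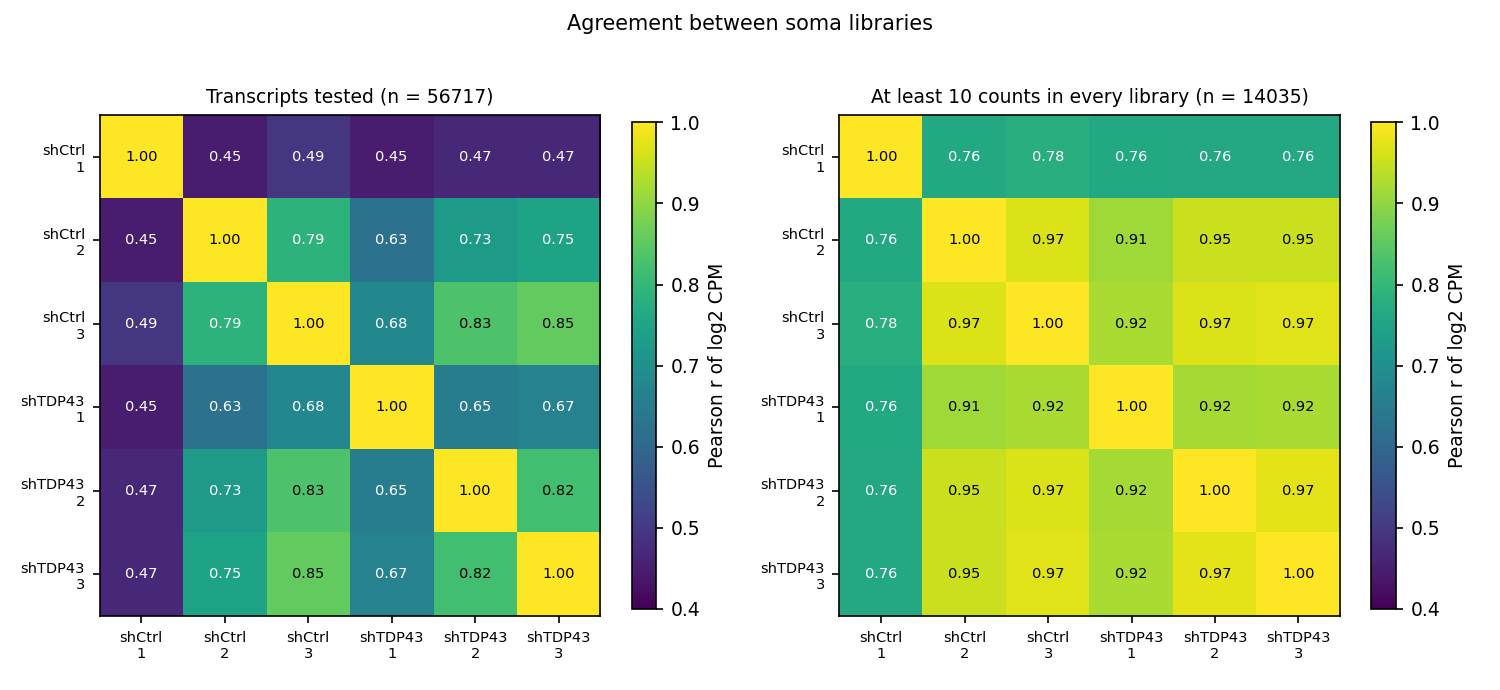
Pearson's r of log2 CPM between each pair of soma libraries, over the 56717 transcripts tested (left) and over the 14035 with at least 10 counts in every library (right), as coloured cells with the value printed. The row of shCtrl 1 is lowest in both panels (0.45 to 0.49 and 0.76 to 0.78), and no block of 3 libraries separates shCtrl from shTDP43.

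No transcript passed the test of shTDP43 against shCtrl in soma. The quasi-likelihood test of edgeR called 0 of 56717 transcripts at a Benjamini-Hochberg adjusted p below 0.05 (0.00%), while 555 (0.979%) had an unadjusted p below 0.05, of which 323 were higher and 232 lower with the TDP-43 hairpin. With upper-quartile scaling the split turned over, to 338 higher and 431 lower. The common biological coefficient of variation (BCV), the relative spread between replicates beyond counting error, was 1.37. DESeq2 called 685 of 63891 transcripts (1.07%), 571 lower and 114 higher. Of these, 682 were at 0 in all 3 libraries of a group, 503 of the 682 were also at 0 in 1 or 2 libraries of the group that had counts, and 0 of the 685 were counted in every library. limma-voom called 5.

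Among the 14035 transcripts with at least 10 counts in every soma library, edgeR again called 0, with 795 (5.66%) below an unadjusted p of 0.05, 268 higher and 527 lower, and a BCV of 0.446. Without shCtrl 1 and with the same minimum, 31147 transcripts were tested, 2491 had an unadjusted p below 0.05, 1163 higher and 1328 lower, the BCV was 0.371, and 1 transcript passed. Without shCtrl 1 and shTDP43 1, leaving 2 libraries against 2, 40009 were tested and 2 passed, both lower with the TDP-43 hairpin. With the expression filter of the main fit in place of the count minimum, the same 2 against 2 gave 0 calls among 65570 transcripts. In the mouse lines the main fit, with the expression filter and no count minimum, called 3241 of 46457 transcripts (6.98%) in CAD soma, with a BCV of 0.412. The same fit called 1435 of 44981 (3.19%) in N2A soma, with a BCV of 0.436. The median within-group r was 0.91 in CAD and 0.90 in N2A soma. The human soma values under that filter were 0 of 56717 called, a BCV of 1.37 and a median r of 0.66. The mouse comparisons used doxycycline-induced loss of TDP-43 in place of an shRNA, and the difference between species was not tested.

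ENST00000369499 (5549 nt) passed without shCtrl 1, with a log2 fold change of -2.72 (edgeR adjusted p = 0.0126). Its levels were 0, 41.6 and 43.2 TPM in the shCtrl soma libraries and 6.10, 6.93 and 7.68 TPM in the shTDP43 soma libraries. The shCtrl libraries 2 and 3 were thus above all shTDP43 libraries, and shCtrl 1, in which the transcript is listed at 0, was below them. In neurites the transcript stood at 9.15, 24.2 and 39.4 TPM in shCtrl and at 0, 4.22 and 3.28 TPM in shTDP43, so that the neurite groups did not overlap. The other transcript that passed in the 4-library fit, ENST00000416167, had 288, 43.4 and 42.4 TPM in shCtrl soma and 113, 6.02 and 5.12 TPM in shTDP43 soma. Both replicate 1 libraries were far above the others of their group, and over all 6 libraries the groups overlapped. In neurites ENST00000416167 had 840, 20.5 and 79.7 TPM in shCtrl and 251, 3.01 and 13.4 TPM in shTDP43, with replicate 1 again highest in each group. Both identifiers were singled out after their values were seen.

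The 4 transcripts with the lowest unadjusted p in soma, 2 in each direction, did not pass the correction in the main fit (edgeR adjusted p = 0.999999 for each). ENST00000395340 (7551 nt) was the only member of these 4 with counts in every soma library. It stood at 12.8, 12.8 and 15.4 TPM in shCtrl and at 35.2, 36.3 and 45.4 TPM in shTDP43, a mean of 13.7 ± 1.51 against 39.0 ± 5.58 TPM (SD, n = 3). The groups did not overlap, and shCtrl 1 lay beside the other controls. The fitted log2 fold change was 1.50 ± 0.25 (SE). Without replicate 1 of both groups and with at least 10 counts in every library, it was 1.43 ± 0.12 (SE; edgeR adjusted p = 0.0569). In neurites the same transcript had 6.20, 4.21 and 3.65 TPM in shCtrl and 10.7, 10.2 and 9.88 TPM in shTDP43, again without overlap, and the log2 fold change was 1.35 ± 0.34 (SE).

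The other 3 were listed at 0 in all libraries of a group. Each of them passed the threshold with DESeq2 and with edgeR without an expression filter, though not in the main fit. ENST00000405240 (4061 nt) had 59.0, 19.2 and 26.3 TPM in shCtrl soma and 0 counts in each shTDP43 soma library, which makes it at least 2001-fold lower against a floor of 3 counts over the group. ENST00000358338 (14700 nt) had 5.95, 2.24 and 5.65 TPM in shCtrl soma and 0 counts in shTDP43 soma, at least 1221-fold lower. ENST00000452441 (3857 nt) went the other way, with 0 counts in shCtrl soma and 13.0, 7.22 and 16.1 TPM in shTDP43 soma, at least 665-fold higher. These floors cover counting error only. An estimated count of 0 depends on how salmon divided reads among the transcripts of a gene, and the levels of the other transcripts of these genes could not be read.

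Their neurite values differed from the soma pattern. ENST00000405240 was present in all 6 neurite libraries, at 46.0, 86.4 and 83.4 TPM in shCtrl and 27.9, 42.7 and 79.4 TPM in shTDP43, and these groups overlapped. ENST00000358338 had 0 counts in all 6 neurite libraries. ENST00000452441 was counted in 1 shCtrl neurite library (6.08 TPM) and in 1 shTDP43 neurite library (4.86 TPM).

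This pattern of 0 in a whole group was met elsewhere in the soma tables. With at least 10 counts in each library of the group that had counts, 82 transcripts were at 0 in all 3 shTDP43 soma libraries and 191 were at 0 in all 3 shCtrl soma libraries. None of the 82 and none of the 191 had the same pattern in neurites (0 in each case), and 57 of the 82 and 125 of the 191 had counts in a neurite library of the treatment in which soma had none. Without shCtrl 1 the 2 numbers became 637 and 249, of which 6 and 0 had the same pattern over the 6 neurite libraries. Without replicate 1 of both groups they became 941 and 822, of which 10 and 0 had it. No neurite library was left out for these numbers, and a 0 in fewer soma libraries is met more easily.

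The size of the group difference, set beside the spread between replicates, depended on the replicate 1 libraries. Over the 14035 transcripts counted in every soma library, the difference of mean log2 CPM had a median size of 0.35 against a median within-group SD of 0.48. Without shCtrl 1 these were 0.25 and 0.28, and without replicate 1 of both groups they were 0.25 and 0.17. The median log2 fold change itself was -0.03 with the edgeR scaling and -0.11 with upper-quartile scaling. The 3 shTDP43 values lay above all 3 shCtrl values for 1265 transcripts (9.01%) and below them for 1055 (7.52%). Without shCtrl 1 the numbers were 2158 and 2316 of the same 14035, and without replicate 1 of both groups 3694 and 3712. Groups of fewer libraries separate more easily, so these counts cannot be set against those of all libraries. Of the 169 transcripts with a mean of at least 500 TPM, 21 were higher and 6 lower without overlap over all 6 libraries. Together these were 16.0%, against 16.5% of all 14035. Of the 169, 9 had a log2 fold change beyond 1 in either direction. Of the 2547 under 5 TPM, 99 were higher and 207 lower.

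Over all 6 libraries the fold change rose with transcript length, and without shCtrl 1 it fell with length. Without replicate 1 of both groups it followed no order of length. The median log2 fold change was -0.24 for the 291 transcripts under 500 nt, -0.22 for the 2114 from 500 to under 1000 nt, -0.03 for the 4544 from 2000 to under 4000 nt and 0.06 for the 4462 of at least 4000 nt. The shCtrl 1 library moved with this trend. Its median log2 CPM was 2.95 for transcripts under 500 nt, against 2.01 to 2.43 in the other 5 libraries, and 5.17 for those of at least 4000 nt, against 5.48 to 5.64. On the difference of mean log2 CPM, the medians were -0.13 under 500 nt and 0.08 at 4000 nt or more with all 6 libraries, 0.09 and -0.04 without shCtrl 1, and 0.05 and 0.01 without replicate 1 of both groups. In neurites the fitted medians were 0.36 under 500 nt and -0.04 at 4000 nt or more, with no neurite library left out.

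The transcript with the largest fold change among the 169 abundant ones was ENST00000220876 (2223 nt), chosen here after its values were seen. Its levels were 2721, 3047 and 3811 TPM in shCtrl soma and 930, 732 and 287 TPM in shTDP43 soma. All 3 knockdown libraries were below all 3 controls, and in each group the replicate 1 library lay nearest to the other group. The means were 3193 ± 559 and 650 ± 329 TPM (SD, n = 3), a ratio of 4.91 in favour of shCtrl, and the fitted log2 fold change was -2.37 ± 0.42 (SE; edgeR unadjusted p = 0.000847, adjusted p = 0.999999). Behind these levels were 44116 to 150923 estimated counts per shCtrl library and 8257 to 30287 per shTDP43 library. The fold change stayed between -1.99 and -2.80 in every alternative fit of the soma libraries that was run. The transcript passed the adjusted threshold in 1 of these 19 fits, edgeR without an expression filter, which called 315 of 132791 transcripts. Without replicate 1 of both groups and with at least 10 counts in every library, the fold change was -2.79 ± 0.43 (SE; edgeR adjusted p = 0.0964).

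The neurite libraries, which are separate, were also apart for this transcript. It stood at 2044, 4276 and 3583 TPM in shCtrl and at 717, 459 and 302 TPM in shTDP43, without overlap, and the log2 fold change was -2.56 ± 0.38 (SE; edgeR unadjusted p = 0.000409, adjusted p = 0.999895). In the neurite fit without an expression filter, which called 386 of 109854 transcripts, it passed. The difference between its soma and neurite fold changes was 0.20 ± 0.53 (SE; edgeR adjusted p = 0.999954 over 12 libraries). An exact two-sided permutation test of 3 libraries against 3 cannot give a p below 0.1, so single transcripts rest on the fit across all transcripts. A lower amount of a transcript in a bulk fraction cannot be told apart from fewer cells that hold it.

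**Figure D3:**
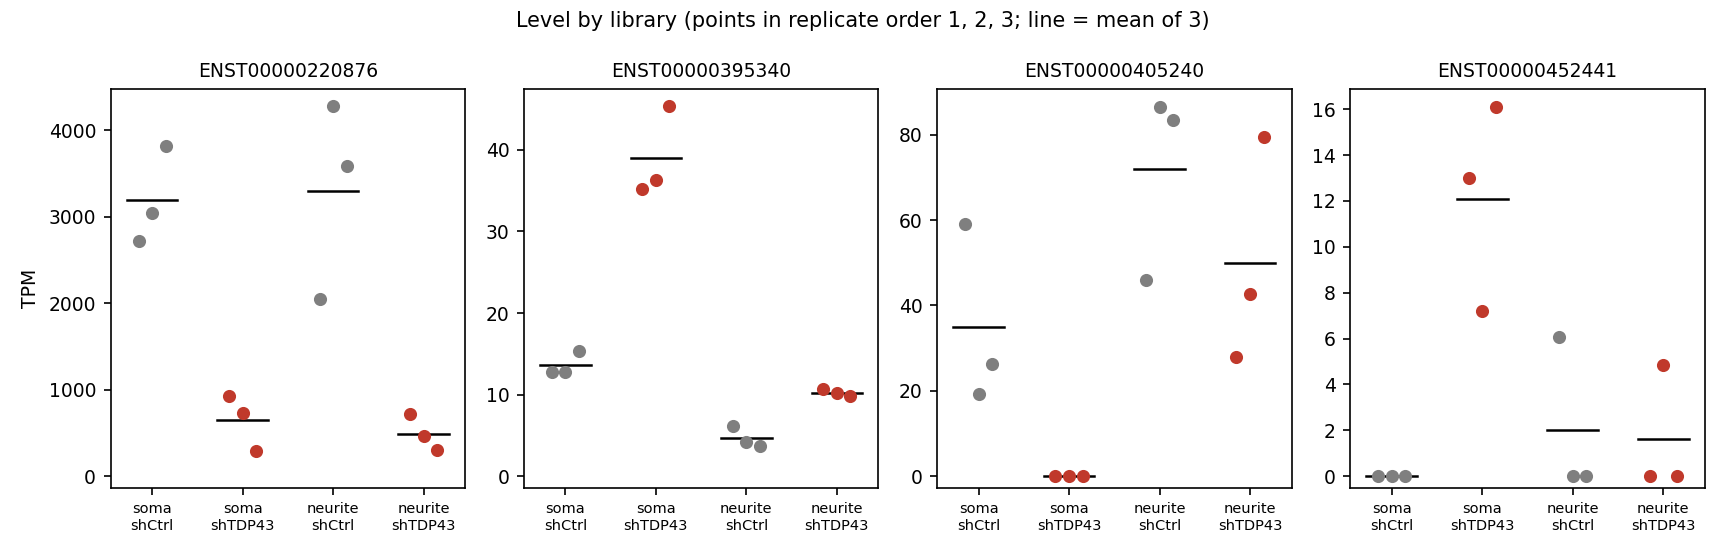
TPM of 4 transcripts in each of the 12 human motor neuron libraries (grey shCtrl, red shTDP43), with a line at the mean of 3 libraries and a separate linear axis for each transcript. ENST00000220876 falls into separate ranges in soma (2721 to 3811 against 287 to 930 TPM) and in neurites, ENST00000395340 is higher with the TDP-43 hairpin in both fractions, and ENST00000405240 and ENST00000452441 are at 0 in 1 soma group while their neurite groups overlap.

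Agreement between soma and neurites was examined for the 8918 transcripts with at least 10 counts in all 12 libraries. In soma 655 of them were lower and 1067 were higher without overlap between the groups. Without shCtrl 1 these were 1705 and 1573 of the same 8918, and without replicate 1 of both groups 2607 and 2614. Groups of fewer libraries separate more easily, so the later counts cannot be set against the first. In neurites 535 (6.0%) were lower and 496 (5.56%) were higher. Transcripts apart in both fractions mostly went the same way. There were 140 lower in both and 159 higher in both, against 6 that were higher in soma and lower in neurites and 6 that were lower in soma and higher in neurites. The 140 were 21.4% of the 655 lower in soma, against 6.0% of all 8918 that were lower in neurites. They were 26.2% of the 535 lower in neurites, against 655 of all 8918 that were lower in soma. The 159 were 14.9% of the 1067 higher in soma, against 5.56% of all 8918 that were higher in neurites. They were 32.1% of the 496 higher in neurites, against 1067 of all 8918 that were higher in soma. The soma and neurite fractions have no libraries in common, but they come from the same treatments, and the labels do not say whether same-numbered fractions came from the same culture.

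The transcripts lower in both had a median log2 fold change of -0.69 in soma and -0.84 in neurites, and 24 of them were below -1 in both. Those higher in both had medians of 0.57 and 0.64, and 14 of them were above 1 in both. Over all 8918 the medians were 0.06 and -0.03, and the fold changes of the 2 fractions had a Pearson's r of 0.28 and a Spearman's rho of 0.31 across transcripts. Without shCtrl soma 1, the numbers were 314 lower in both, 241 higher in both, and 12 and 10 in opposite directions. Without replicate 1 of both soma groups they were 402, 323, 20 and 17. Here too, fewer soma libraries separate more easily.

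**Figure D4:**
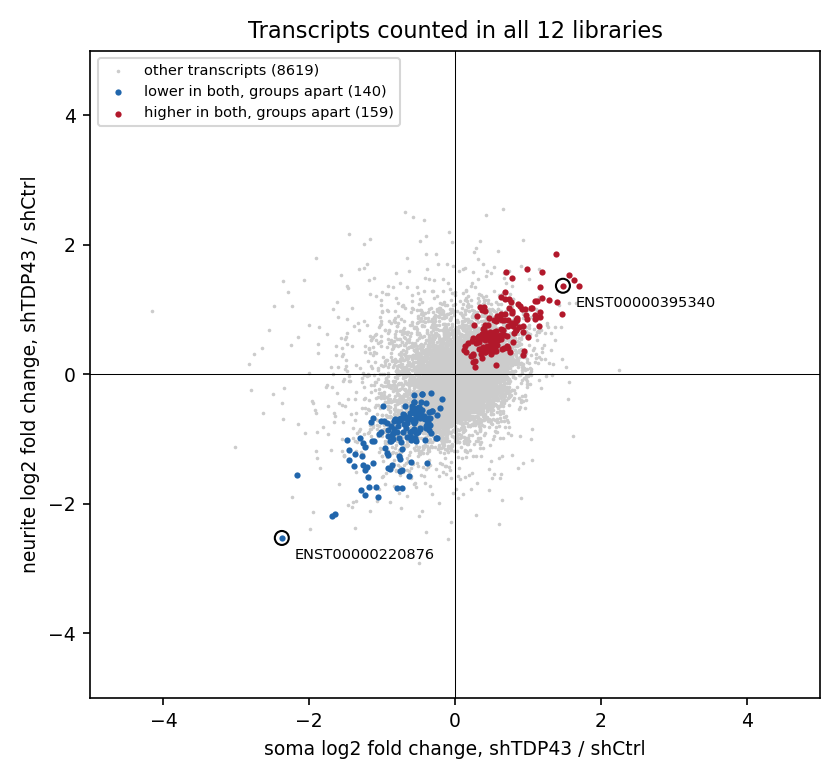
Log2 fold change of shTDP43 over shCtrl in soma (horizontal) and in neurites (vertical) for the 8918 transcripts with at least 10 counts in all 12 libraries, 1 point per transcript. Blue points (140) are lower and red points (159) higher in both fractions without overlap between groups, and 2 circled transcripts, ENST00000220876 and ENST00000395340, lie near the outer ends of these sets.

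A direct test of the difference between the soma and neurite effects, in a model of all 12 human libraries, called 3 of 69932 transcripts (0.00429%). ENST00000405240, described above, was lower with the TDP-43 hairpin in soma than in neurites (edgeR adjusted p = 0.00643). ENST00000379939 (10738 nt) had 12.6, 5.77 and 20.4 TPM in shCtrl soma and 8.42, 8.49 and 5.10 TPM in shTDP43 soma, which overlapped. In neurites it had 9.74, 16.4 and 7.98 TPM in shCtrl and 0 counts in all 3 shTDP43 libraries (edgeR adjusted p of the difference = 0.00643). ENST00000616213 (9943 nt) had 55.7, 78.4 and 79.2 TPM in shCtrl soma and 20.8, 18.6 and 5.29 TPM in shTDP43 soma, without overlap. In neurites it had 5.06, 17.5 and 5.55 TPM in shCtrl and 0 counts in shTDP43, so that both fractions were lower and the neurites were at 0 (edgeR adjusted p of the difference = 0.0162). This call was lost at a threshold of 0.01 and when shCtrl soma 1 was left out. All 3 calls involve a group listed at 0. For ENST00000379939 and ENST00000616213 that group includes shTDP43 neurite 1, the neurite library with the highest share at 0 (13.2%). On neurites alone, edgeR called 0 of 35730 transcripts (0.00%), with 684 below an unadjusted p of 0.05, and DESeq2 called 86.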

How the data were processed

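Total RNA was isolated with a Zymo column kit, and poly(A) RNA libraries were made from it with a Kapa mRNA HyperPrep kit. Per the labels, the authors trimmed adapters with cutadapt and quantified transcripts with Salmon (versions not given in the sources used here). The build hg38 is among those named. The transcript set used for the human samples was not given in the sources used here. The deposited tables hold estimated counts and TPM per transcript for each library, with no pooling.

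Estimated counts were rounded to whole numbers. They were tested with edgeR 4.0.16 (filterByExpr, TMM scaling, quasi-likelihood F test, Benjamini-Hochberg adjustment, threshold 0.05) in R 4.3.3, for soma and neurites separately and in 1 model of all 12 libraries for their difference. DESeq2 1.42.0 and limma 3.58.1 (voom) were alternatives. TPM, as deposited by the authors, served for levels. The SE of a fold change was its size divided by the square root of F. Groups not overlapping were read from scaled CPM, and for named transcripts also from TPM. The 2 rises and 2 falls with the lowest p in soma were named by rule, and other transcripts were named after their values were seen. The comparison and lists were chosen with earlier results of these data known. Fits on genes could not be made, since transcripts could not be assigned to genes. Library totals are 10117294 to 38848691 estimated counts in soma and 12878078 to 32261110 in neurites. The study describes its human motor neuron replicates as biological, but the labels do not tie libraries to cultures, and p-values measure the spread between these libraries.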

Additional observations from a re-analysis of the deposited data

Results flagged for a closer look

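For 3 transcripts the effect of the TDP-43 hairpin differed between soma and neurites in a test of the difference itself. The adjusted p (edgeR, 12 libraries) was 0.006427 for ENST00000379939, 0.006427 for ENST00000405240 and 0.01618 for ENST00000616213. In each, a group of 3 libraries is listed at 0 (shTDP43 neurites for ENST00000379939 and ENST00000616213, shTDP43 soma for ENST00000405240), and the fitted fold change against 0 is not a measured size.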

How the results depend on the processing

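The count of 0 transcripts called in soma was 0 under the stricter threshold of 0.01, upper-quartile scaling, a minimum of 10 counts in every library (with each of 3 scalings) and the removal of any single library (0 to 0). Other settings gave 685 (DESeq2), 315 (no filter), 5 (limma-voom) and 1 (all 4 groups in 1 model, ENST00000405240). With at least 10 counts in every library, leaving out shCtrl replicate 1 gave 1, and leaving out replicate 1 of both groups gave 2. With the expression filter alone, leaving out replicate 1 of both groups gave 0. The settings of the last 2 sentences were chosen after seeing the data. So were the removal of libraries from the soma and neurite difference and the 2 further scalings at the count minimum. The 5 of limma-voom were ENST00000369849, ENST00000361453, ENST00000361390, ENST00000635795 and ENST00000371085, with log2 fold changes from -1.47 to -0.12. By TPM the soma groups overlapped for each of these except ENST00000635795. ENST00000361453 had 19490 TPM in shCtrl soma 1 and 7217 to 7742 in the remaining soma libraries. ENST00000361390 had 14070 TPM in shCtrl soma 1 and 5283 to 6276 in the remaining ones. Leaving out single libraries moved the count at an unadjusted p below 0.05 from 555 of 56717 tested to as many as 2547 of 67669 (without shCtrl 1). Without shCtrl 3 it was 2379 of 64441. The number tested thus changed as well. In neurites the count of 0 became 86 (DESeq2), 386 (no filter) and 3 (1 model). The soma and neurite difference, 3 calls, became 2062 with DESeq2 and 3 to 10 when a library was left out, the highest without shTDP43 neurite 3. Without shCtrl soma 1 it was 5, and ENST00000616213 was not among them. At a threshold of 0.01 it was 2, again without ENST00000616213. The median within-group r, 0.66, became 0.92 with the count minimum. The neurite log2 fold change of ENST00000405240, -0.29, was 0.033 without shTDP43 neurite replicate 1 and ranged from -0.95 to 0.033 when a neurite library was left out. The cause of these changes was not tested. The planned choice between genes and transcripts was not run, since genes could not be assigned.

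Between same-numbered shCtrl and shTDP43 soma libraries, deviations from the group means correlated at 0.15, 0.06 and 0.16. Between the neurite groups these values were 0.17, -0.08 and 0.28. Soma against neurites gave 0.18, 0.08 and 0.19 in shTDP43 and -0.12, -0.16 and 0.01 in shCtrl. Such weak values do not settle whether same-numbered libraries shared a culture or batch, which was not tested. A fit with the replicate number as a block called 0 transcripts in soma and 0 in neurites, and 3 for their difference, and 277 transcripts in soma then had an unadjusted p below 0.05.

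Limits are the spread between libraries and the 0 values of shCtrl soma 1, for 40.7% of the transcripts well counted elsewhere. Others are the like share of 13.2% in shTDP43 neurite 1 and the division of reads among transcripts of a gene. That division could not be examined without gene assignments. Their relative weight was not tested.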
